A study of Mus musculus with 16 samples.

Results

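Heat shock proteins that the heat shock factors are known to switch on were followed across the 16 mouse hearts of a pressure-overload experiment. The group held 10 genes of the 55487 in the count table: the inducible HSP70 pair Hspa1a and Hspa1b, the constitutive HSP70 Hspa8, the HSP110 gene Hsph1, the inducible HSP90 gene Hsp90aa1, the J-domain genes Dnaja1 and Dnajb1, the mitochondrial chaperonin genes Hspd1 and Hspe1, and the cochaperone gene Bag3. All 10 passed the filter on low counts, which kept 18275 genes. They were chosen by their measured levels: they were higher in sham libraries whose animal number starts with 33 than in the other sham libraries. That difference is therefore given below as a description and without a test.

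The experiment compared mice with and without Cardinal (Gm12295), a cardiac long noncoding RNA, after pressure overload. WT animals are labelled Control (Ctrl), and CARDINAL-KO animals carried a knockout of Cardinal whose design is not given in the sources used here. Both genotypes underwent transverse aortic constriction (TAC), in which a suture ties off part of the aorta so that the heart pumps against a higher pressure, or a sham operation without the ligation. Hearts were taken 4 weeks later from male mice weighing 25-30 g at surgery, and poly(A) RNA of the heart apex was sequenced from 4 mice in each of the 4 groups; the ages of the mice are not given in the labels, and whole tissue with all its cell types was used. The sham libraries with a number starting with 33 (number-33 libraries below) were Ctrl sham 4 and KO sham 1, 2 and 3, and the other sham libraries were Ctrl sham 1, 2 and 3 and KO sham 4. What these numbers stand for is not given in the labels, and no TAC animal has a number starting with 33.

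Library totals ranged from 53169437 to 79404714 counts. Cardinal was detected at 3.24 to 3.86 CPM (its reads as a share of the scaled library total) in Ctrl sham, 0.297 to 0.553 in KO sham, 2.69 to 8.02 in Ctrl TAC and 0.276 to 0.371 in KO TAC 1 to 3. The library labelled KO TAC 4 held 377 counts (4.55 CPM) of Cardinal, which goes against its label, and the tests of the averaged TAC effect and of KO TAC against Ctrl TAC were repeated without it. Cardiomyocyte markers summed to 45152 to 50597 CPM in the number-33 sham libraries and 44905 to 52174 CPM in the other sham libraries, and the summed markers of each of the 9 other cell types and tissues examined overlapped between these libraries as well.

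Heat shock proteins are molecular chaperones: they bind unfolded proteins, help them to fold or pass them on to degradation. When unfolded proteins build up after heat, ischemia or handling of a tissue, heat shock factor 1 is released from the chaperones that hold it back, forms a trimer and binds promoter elements made of inverted repeats of the letters GAA. HSP70 and HSP90 work in cycles driven by ATP, J-domain proteins deliver clients to HSP70, HSP110 and BAG proteins exchange its nucleotide, and HSP60 with its lid HSP10 folds proteins inside mitochondria. In heart muscle BAG3 is known for maintaining the sarcomere together with small heat shock proteins.

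The promoters were searched for the core of the heat shock element, because binding of heat shock factors there defines these genes in the textbooks. RefSeq (GRCm38.p6) start sites were available for 8 of the 10 genes, all but Hsp90aa1 and Hspa8. A pair of inverted GAA repeats, spelled GAANNTTC or TTCNNGAA and identical on both strands, stood in the 250 bases before a start site of Hspa1a, Hspa1b, Hsph1, Dnaja1, Hspe1 and Hspd1. It was not found in the windows of Dnajb1 and Bag3, and Dnaja1 held it before the first of its start sites only. Among all 32851 promoter windows of the same length, 12.8% held such a pair, and 0.466% held 3 adjoining repeats in alternating direction. Counted by gene over any of its windows, as for the members here, the shares were 14.5% and 0.514%. The stretches are printed 5′ to 3′ on the strand of the gene, with the repeats in capitals.
Hspa1a, chr17:34972157-34972306, minus strand: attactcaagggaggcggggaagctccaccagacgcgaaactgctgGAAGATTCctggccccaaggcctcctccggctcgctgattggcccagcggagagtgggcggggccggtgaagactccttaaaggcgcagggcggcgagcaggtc
Hspa1b, chr17:34959324-34959353, minus strand: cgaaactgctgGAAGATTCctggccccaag
Hsph1, chr5:149636351-149636380, minus strand: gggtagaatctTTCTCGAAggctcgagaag
Dnaja1, chr4:40722333-40722362, plus strand: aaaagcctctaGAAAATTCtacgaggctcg
Hspe1, chr1:55088053-55088082, plus strand: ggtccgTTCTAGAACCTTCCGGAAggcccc

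Hspa1a and Hspa1b carried the same element at the same place, starting at position -104 from the start site, and 247 of the 250 bases before their start sites were identical (98.8%). Hspe1 alone among the genes printed here had 3 pairs in a row, which overlap to form 2 triples. Hspe1 and Hspd1 lie head to head on opposite strands, so this run of repeats also lies in the window of an alternative start site of Hspd1 and inside the annotated Hspd1 gene. The stretch of Dnaja1 lies inside its GENCODE gene, which begins upstream of the RefSeq start site, and most of that of Hsph1, its repeats included, lies inside its GENCODE gene. A match of letters is a description of the sequence and does not show that a factor is bound.

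The inducible HSP70 genes differed most between libraries. Hspa1a (ENSMUSG00000091971, chr17:34969190-34972156, minus strand, GRCm38) and Hspa1b (ENSMUSG00000090877, chr17:34956436-34959238, minus strand) encode nearly the same protein and neighbour each other. Hspa1a stood at 4.64, 4.30, 6.98 and 346 CPM in Ctrl sham 1 to 4. In KO sham 1 to 4 it stood at 158, 155, 10.1 and 5.15 CPM. One Ctrl and 2 KO sham hearts thus carried levels that no other sham heart approached, and the number-33 library KO sham 3 was close to the others. The mean of the number-33 sham libraries was 167 ± 138 CPM (SD, n = 4), against 5.27 ± 1.20 CPM in the other 4, which is 31.8 times higher.

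Hspa1b followed the same libraries: 4.26, 4.61, 8.11 and 437 CPM in Ctrl sham 1 to 4, and 186, 191, 6.46 and 5.20 CPM in KO sham 1 to 4. Its number-33 mean was 205 ± 177 CPM against 5.55 ± 1.75 CPM (n = 4 each), 37.0 times higher, although KO sham 3 fell within the range of the other sham libraries. Hspa1a took 44.2% to 61.1% of the counts of the pair over the 16 libraries. Longest transcripts of both genes matched in 2516 of 2844 aligned bases (88.5%), so reads can be split between them and the separate levels are uncertain; the exons of Hspa1a also overlap those of Gm20481 on the opposite strand.

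After TAC the inducible HSP70 genes were again uneven. Hspa1a measured 8.52, 14.7, 9.85 and 21.7 CPM in Ctrl TAC 1 to 4, and 55.7, 99.1, 17.8 and 15.6 CPM in KO TAC 1 to 4. Hspa1b measured 6.85, 12.6, 9.05 and 18.3 CPM in Ctrl TAC, and 52.5, 97.0, 17.4 and 14.1 CPM in KO TAC. The libraries KO TAC 1 and 2 were the highest of the 8 for both genes, and KO TAC 3 and the library labelled KO TAC 4 lay within the range of Ctrl TAC for both. On average Hspa1a was 3.41-fold higher in KO TAC than in Ctrl TAC (log2 1.77, SE 0.82, 95% interval -0.02 to 3.56), and Hspa1b 3.84-fold (log2 1.94, SE 0.90, -0.04 to 3.92). Neither passed the quasi-likelihood test of edgeR after Benjamini-Hochberg adjustment over all genes (adjusted p = 0.269 and 0.273), with or without the library labelled KO TAC 4 (0.216 and 0.226 without it).

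Genotype and animal number move together in these TAC libraries. Of the 4 animals with a number starting with 25, 3 were Ctrl TAC and the other was the library labelled KO TAC 4, in which Hspa1a was 1.01 times the mean of the 3 Ctrl TAC libraries. Among animals with a number starting with 34, KO TAC 1 to 3 averaged 6.76 times the single library Ctrl TAC 1. With a term for the numbers starting with 25 in the model, the difference in Hspa1a was 1.33 on the log2 scale (adjusted p = 0.700 in edgeR). That estimate rests in part on the library labelled KO TAC 4, whose Cardinal level goes against its label.

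**Figure D1:**
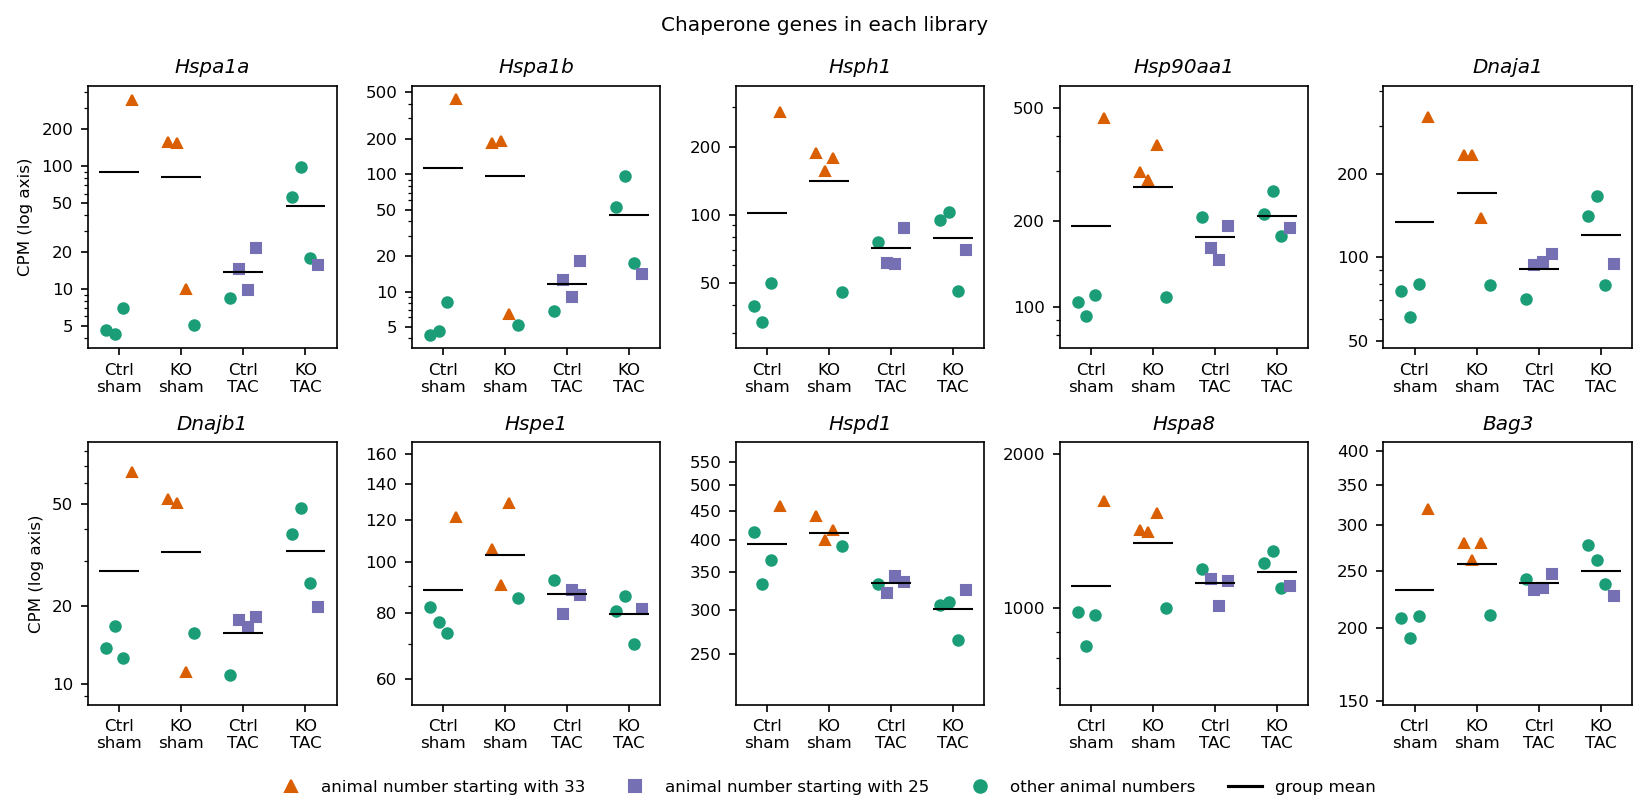
CPM on a log axis in each of the 16 libraries for each of the 10 chaperone genes, by group; triangles are number-33 sham libraries, squares animals with a number starting with 25, circles all others, and bars are means of the 4 libraries of a group. Hspa1a ranged from 4.30 to 346 CPM, and the library labelled KO TAC 4 is the square in each KO TAC group.

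Hsph1 and Hsp90aa1, the HSP110 and HSP90 members, separated the number-33 sham libraries from the others fully. Hsph1 (ENSMUSG00000029657, chr5:149614287-149636376, minus strand) reloads HSP70 with ATP by exchanging its nucleotide, and stood at 39.3, 33.4, 49.7 and 285 CPM in Ctrl sham 1 to 4 and at 186, 156, 178 and 45.4 CPM in KO sham 1 to 4. Hsp90aa1 (ENSMUSG00000021270, chr12:110690605-110702728, minus strand), which matures kinases and receptors, stood at 104, 93.1, 110 and 459 CPM in Ctrl sham and at 299, 280, 371 and 108 CPM in KO sham. KO sham 3 was among the high libraries for both, unlike for Hspa1a. The ratio of number-33 to other sham means was 4.80 for Hsph1 (201 ± 57.3 against 41.9 ± 7.13 CPM) and 3.38 for Hsp90aa1 (352 ± 81.5 against 104 ± 7.75 CPM; n = 4 each).

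Both genes lay between these extremes after TAC. Hsph1 was at 75.9, 61.3, 60.7 and 87.0 CPM in Ctrl TAC 1 to 4 and at 94.8, 103, 46.1 and 70.0 CPM in KO TAC 1 to 4. Hsp90aa1 was at 207, 161, 146 and 192 CPM in Ctrl TAC and at 213, 255, 177 and 190 CPM in KO TAC. All 8 TAC libraries were above every other-number sham library for Hsp90aa1, and 7 of 8 for Hsph1, while none exceeded all sham libraries. Between genotypes after TAC the groups overlapped, and edgeR gave Hsph1 0.14 on the log2 scale (SE 0.25, adjusted p = 0.813) and Hsp90aa1 0.24 (SE 0.15, adjusted p = 0.417).

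Dnaja1 and Dnajb1 encode J-domain proteins, which stimulate the ATPase of HSP70. Dnaja1 (ENSMUSG00000028410, chr4:40722150-40737149, plus strand) stood at 75.5, 60.9, 80.2 and 322 CPM in Ctrl sham 1 to 4 and at 235, 235, 139 and 79.5 CPM in KO sham 1 to 4. Dnajb1 (ENSMUSG00000005483, chr8:83608193-83612653, plus strand), the partner that also recruits HSP70 to heat shock factor 1, stood at 13.8, 16.7, 12.6 and 66.7 CPM in Ctrl sham and at 52.4, 50.3, 11.2 and 15.8 CPM in KO sham. Dnaja1 was higher in every number-33 library than in the other sham libraries (233 ± 74.9 against 74.0 ± 8.98 CPM), whereas KO sham 3 was the lowest of the 8 sham libraries for Dnajb1 (45.1 ± 23.8 against 14.7 ± 1.87 CPM; n = 4 each). Exons of Dnaja1 overlap those of Gm6297 and Smu1 on the opposite strand, and whether counting used strand is not given in the sources used here, so its level is uncertain.

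Dnajb1 was the only one of the 10 genes whose KO TAC libraries all exceeded the Ctrl TAC libraries: 38.3, 48.3, 24.7 and 20.0 CPM in KO TAC 1 to 4 against 10.8, 17.6, 16.6 and 18.2 CPM in Ctrl TAC 1 to 4. Of all genes tested, 5.55% were higher without overlap in this comparison. The fold change of Dnajb1 was 2.07 (log2 1.05, SE 0.44, 95% interval 0.08 to 2.01), and in edgeR its adjusted p was 0.223 (0.180 without the library labelled KO TAC 4). That library exceeded the mean of the 3 Ctrl TAC libraries with like numbers 1.14 times, and KO TAC 1 to 3 exceeded Ctrl TAC 1 by 3.43 times. Dnaja1 measured 70.8, 94.0, 96.1 and 103 CPM in Ctrl TAC and 142, 167, 79.2 and 94.5 CPM in KO TAC, with overlap (log2 0.40, SE 0.26, adjusted p = 0.437 in edgeR).

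The mitochondrial chaperonin genes were the only members called after TAC. Dnaja1 (log2 -0.32, SE 0.18), Hsph1 (-0.29, SE 0.17) and Hspa1b (-0.45, SE 0.64) had larger averaged falls than Hspe1 (-0.18, SE 0.07), with wider errors. Whether the members differ from each other was not tested. Hspd1 (HSP60, ENSMUSG00000025980, chr1:55077835-55088243, minus strand) forms the folding chamber of the matrix, and Hspe1 (HSP10, ENSMUSG00000073676, chr1:55088132-55091307, plus strand) closes it. Hspd1 stood at 413, 334, 369 and 458 CPM in Ctrl sham 1 to 4, and at 440, 399, 417 and 389 CPM in KO sham 1 to 4. After TAC it stood at 334, 321, 345 and 336 CPM in Ctrl hearts, and at 305, 309, 265 and 325 CPM in KO hearts. In 5 of the 8 TAC libraries it was below all 8 sham libraries, and it fell to 0.790 of the sham level on average over both genotypes (log2 -0.34, SE 0.05, 95% interval -0.44 to -0.24, adjusted p = 2.91e-05 in edgeR). Without the library labelled KO TAC 4 the value was -0.36 (adjusted p = 3.61e-05 in edgeR).

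Hspd1 fell within each genotype as well, by 0.28 on the log2 scale in Ctrl hearts (SE 0.07, adjusted p = 0.0122 in edgeR) and by 0.40 in KO hearts (SE 0.07, adjusted p = 0.000379). The number-33 term in these estimates draws on sham libraries of both genotypes. The call in Ctrl hearts was lost without Ctrl sham 4, and also in the fit to the Ctrl libraries alone, which had no number term. The test of the difference between these responses gave a log2 value of -0.12 (SE 0.11, adjusted p = 0.738 in edgeR). Among KO animals with a number starting with 34, the 3 TAC libraries averaged 0.752 of the single sham library. Hspd1 was also the member least separated by animal number, with 428 ± 26.1 CPM in number-33 and 376 ± 33.5 CPM in other sham libraries (n = 4 each) and overlapping ranges.

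Hspe1 measured 82.2, 76.8, 73.2 and 121 CPM in Ctrl sham 1 to 4 and 106, 90.5, 129 and 85.6 CPM in KO sham 1 to 4. It measured 92.5, 79.7, 88.5 and 86.5 CPM in Ctrl TAC and 80.8, 86.3, 69.9 and 81.3 CPM in KO TAC. The ranges of TAC and sham libraries overlapped, and the averaged fall to 0.882 of the sham level (log2 -0.18, SE 0.07) had an adjusted p of 0.0399 in edgeR. This call was lost without the library labelled KO TAC 4 (adjusted p = 0.0540) and in 11 other refits. The first exons of Hspd1 and Hspe1 overlap on opposite strands, so reads there could be counted for either. The sums of cardiomyocyte markers also fell, from 44905 to 52174 CPM over all sham libraries to 37463 to 41254 in Ctrl TAC and 32043 to 33411 in KO TAC, and mitochondrially encoded genes took 26.8% to 28.8% of counts in sham and 21.9% to 27.0% in TAC libraries. The sums of fibroblast markers went the other way, from 557 to 668 CPM in sham to 996 to 1345 in Ctrl TAC and 1406 to 1592 in KO TAC. The part of these sums in the fall of Hspd1 and Hspe1, and in the changes of the gene lists below, was not tested, and in whole tissue fewer cells of a type and less RNA per cell cannot be told apart.

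Hspa8 and Bag3 were abundant and moved little in the averaged TAC effect and between genotypes after TAC, but they differed between sham libraries. Hspa8 (ENSMUSG00000015656, chr9:40800984-40810087, plus strand), the constitutive HSP70 that also uncoats clathrin vesicles, stood at 986, 845, 970 and 1622 CPM in Ctrl sham 1 to 4 and at 1420, 1409, 1535 and 1002 CPM in KO sham 1 to 4. Bag3 (ENSMUSG00000030847, chr7:128523616-128546981, plus strand) stood at 208, 192, 209 and 319 CPM in Ctrl sham and at 279, 261, 279 and 210 CPM in KO sham. Both separated the number-33 libraries fully, at a ratio of means of 1.57 for Hspa8 (1496 ± 101 against 951 ± 71.6 CPM) and 1.39 for Bag3 (284 ± 24.4 against 205 ± 8.47 CPM; n = 4 each). Hspa8 ranged from 1010 to 1195 CPM in Ctrl TAC and from 1096 to 1294 in KO TAC, and Bag3 from 232 to 247 and from 226 to 277 CPM. Snord14c, Snord14d and Snord14e lie within exons of Hspa8 on the same strand.

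By animal number, the sham libraries split for most of these genes in both genotypes. In 7 of the 10 genes every number-33 library was above every other sham library, while 3.76% of all genes tested were; Hspa1b, Dnajb1 and Hspd1 overlapped. That count follows from how the genes were chosen. Ctrl sham 4 had 65.2 times the mean Hspa1a level of the other Ctrl sham libraries, and KO sham 1 to 3 averaged 20.9 times KO sham 4. Ctrl sham 4 was the highest of all 16 libraries for 9 of the genes, and KO sham 3 for the other, Hspe1. The median log2 difference over the 10 genes was 1.76, against -0.002 over all genes.

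KO sham 3 divided the genes. Its levels relative to the mean of KO sham 1 and 2 were 0.0646 for Hspa1a, 0.0343 for Hspa1b, 0.217 for Dnajb1 and 0.590 for Dnaja1. They were 1.04 for Hsph1, 1.28 for Hsp90aa1, 1.32 for Hspe1, 0.994 for Hspd1, 1.09 for Hspa8 and 1.03 for Bag3. The inducible HSP70 genes and both J-domain genes were thus lower in this heart than in KO sham 1 and 2, and the other 6 genes were near or above their level.

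**Figure D2:**
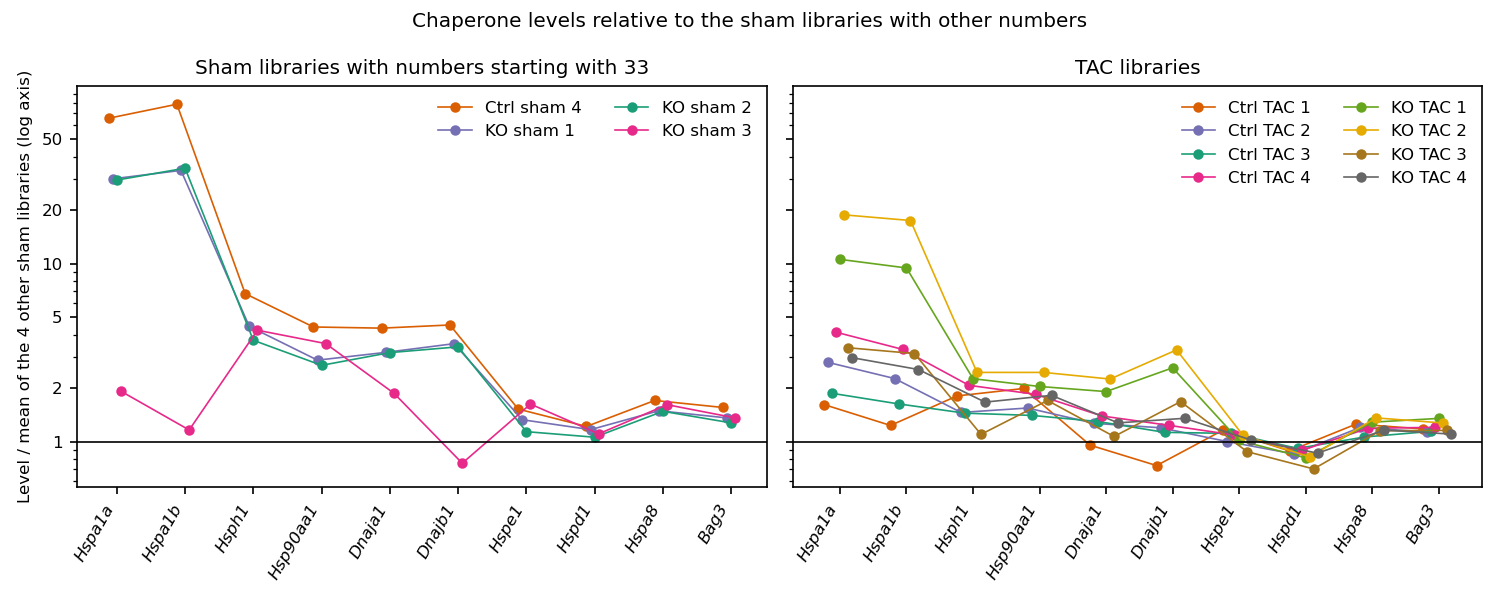
Level of each chaperone gene in each library divided by the mean of the 4 sham libraries with other numbers, on a log axis; the left panel shows the 4 number-33 sham libraries and the right panel the 8 TAC libraries. The line of KO sham 3 drops for Hspa1a, Hspa1b, Dnajb1 and, less far, Dnaja1 and lies near the other number-33 libraries elsewhere. KO TAC 1 and 2 lie above the other TAC libraries for every gene except Hspe1 and Hspd1.

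For most of the genes the direction after TAC depended on which sham libraries served as reference. Against the mean of the sham libraries with other numbers, the TAC mean was 5.77 times as high for Hspa1a, 5.13 for Hspa1b, 1.85 for Hsp90aa1, 1.78 for Hsph1, 1.65 for Dnajb1, 1.43 for Dnaja1, 1.21 for Hspa8, 1.19 for Bag3, 1.05 for Hspe1 and 0.844 for Hspd1. Against the number-33 libraries the TAC mean was 0.182 for Hspa1a, 0.139 for Hspa1b, 0.372 for Hsph1, 0.455 for Dnaja1, 0.539 for Dnajb1, 0.547 for Hsp90aa1, 0.741 for Hspd1, 0.745 for Hspe1, 0.769 for Hspa8 and 0.860 for Bag3. Hspd1 was lower against both, and the other 9 were higher against one set and lower against the other. Since the genes were chosen for low levels in one set of sham libraries and high levels in the other, these ratios are a description. Within KO animals with a number starting with 34, the 3 TAC libraries averaged 11.2 times the single sham library for Hspa1a, 2.36 times for Dnajb1 and 1.98 times for Hsp90aa1.

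In the model both sets of sham libraries had equal weight. With the effect of TAC averaged over Ctrl and KO hearts, 0 of the 10 genes were called higher and 2 lower, where 21.7% of all genes were called higher and 20.4% lower. In Ctrl hearts 0 genes of the group were higher and 1 lower (9.29% and 8.47% of all genes), and in KO hearts 0 were higher and 1 lower (17.5% and 16.4%). The median log2 fold change of the group in the averaged effect was -0.17, against 0.01 over all genes. For Hspa1a the averaged log2 fold change was -0.14 with a 95% interval of -1.42 to 1.15, which spans both directions; with no number term in the model it was -1.76 (adjusted p = 0.205 in edgeR). For Bag3 the interval was -0.08 to 0.12, and for Hspa8 -0.16 to 0.06.

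For genotype, no member was called. KO TAC against Ctrl TAC gave 0 of 10 genes in edgeR, where 1.55% of all genes were called higher and 1.58% lower; 2 members (Dnajb1 and Hspd1) and 3478 of all genes had an unadjusted p under 0.05, and DESeq2 called 0 members. The log2 fold change was positive for 8 of the 10, with a median of 0.19 against -0.002 over all genes, and negative for Hspd1 (-0.15, SE 0.07, adjusted p = 0.251 in edgeR) and Hspe1 (-0.13, SE 0.10, adjusted p = 0.512). Without the library labelled KO TAC 4 these log2 values were 0.19 for Hsph1, 0.28 for Hsp90aa1, 0.50 for Dnaja1, 0.11 for Hspa8, 0.11 for Bag3, -0.19 for Hspd1 and -0.14 for Hspe1, with adjusted p from 0.181 to 0.772 in edgeR. KO sham against Ctrl sham gave 0 of 10, where 0% of all genes were called by edgeR; 0 members and 352 of all genes had an unadjusted p under 0.05, and DESeq2 called 0 members. The interaction of genotype and surgery gave 0 of 10 with 0% of all genes called by edgeR; 2 members and 1978 genes had an unadjusted p under 0.05, namely Hspa1a (log2 2.81, SE 1.20, adjusted p = 0.431) and Hspa1b (log2 3.07, adjusted p = 0.435), and DESeq2 called 0 members.

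**Figure D3:**
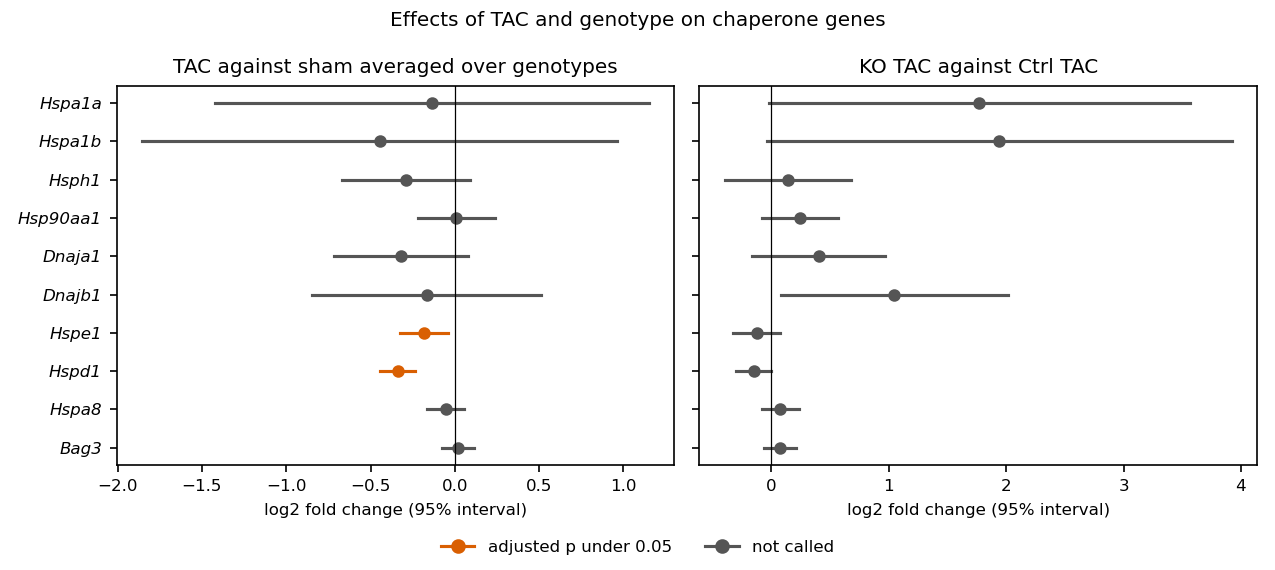
Log2 fold changes of the 10 chaperone genes with 95% intervals from the model with all 16 libraries, for TAC against sham averaged over both genotypes (left) and KO TAC against Ctrl TAC (right). Only Hspd1 (-0.34) and Hspe1 (-0.18) were called, both lower after TAC; the intervals of Hspa1a and Hspa1b are the widest.

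These intervals rest on a spread per gene that all 16 libraries share, so the sham libraries enter the genotype comparison after TAC as well. Among the number-33 sham libraries the SD of log2 CPM was 2.23 for Hspa1a and 2.69 for Hspa1b. In KO TAC the SD of log2 CPM was 1.29 for Hspa1a and 1.32 for Hspa1b, larger than for 99.3% of the genes tested in both cases, and 0.58 for Dnajb1, larger than for 93.8%. In Ctrl TAC the SD was 0.61 for Hspa1a (larger than for 91.8% of genes), but 0.04 for Hspd1 and 0.04 for Bag3, smaller than for all but 4.48% and 4.01% of genes. KO TAC 2 was the highest of the 8 TAC libraries for 7 of the 10 genes. The summed level of the 10 genes was 1661 to 1946 CPM in the sham libraries with other numbers, 3074 to 4436 in the number-33 libraries and 2017 to 2720 after TAC.

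Per kilobase of annotated exon, Hspa8 was the most abundant of the 10 genes in every group. The length joins the exons of all annotated transcripts of a gene, and the order below depends on it. It was 8629 bases for Dnaja1, 7266 for Hsph1 and 1474 for Hspe1. In Ctrl TAC it stood at 260 ± 18.2 CPM per kb (SD, n = 4), followed by Hspd1 at 126 ± 3.68, Bag3 at 93.2 ± 2.62, Hspe1 at 58.9 ± 3.63 and Hsp90aa1 at 45.0 ± 7.11. Dnaja1 at 10.6 ± 1.63 and Hsph1 at 9.80 ± 1.74 CPM per kb did not differ beyond their spread. Neither did Dnajb1 at 4.94 ± 1.06, Hspa1a at 4.62 ± 2.01 and Hspa1b at 4.17 ± 1.79 CPM per kb, which closed the order. In the number-33 sham libraries Hspa1b at 73.1 ± 63.1 and Hspa1a at 56.4 ± 46.4 CPM per kb had moved up beside Hspe1 at 75.8 ± 11.7, within a very wide spread.

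The transcription factors Hsf1 and Hsf2 were nearly level. Hsf1, the main regulator of heat-induced transcription, ranged from 24.2 to 30.2 CPM in number-33 and from 22.3 to 24.9 in other sham libraries, with overlap, and its averaged TAC log2 fold change was -0.01 (adjusted p = 0.923 in edgeR). Hsf2 ranged from 12.9 to 14.5 and from 14.5 to 15.2 CPM in the same sham libraries, lower without overlap in the former although the ranges almost met, as were 3.9% of all genes. Its averaged TAC log2 fold change was -0.07 (adjusted p = 0.195 in edgeR). Of the 5 tested heat shock factors and regulators, 1 was called higher and 1 lower for this effect, against 21.7% and 20.4% of all genes. Lower was Hsf4 (log2 -0.29, SE 0.10, adjusted p = 0.0336 in edgeR), at 2.43 CPM in Ctrl TAC. Higher was Hsf2bp (0.72, SE 0.22, adjusted p = 0.0129), at 0.569 CPM there and with exons that overlap those of Rrp1b. Without the library labelled KO TAC 4, 1 was called higher and 0 lower.

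Other chaperone lists were set beside the group by their counts. Of all genes tested, 3.76% were higher and 3.9% lower without overlap in the number-33 sham libraries. Among HSP90 family members and cochaperones, 11 of 19 were higher without overlap in the number-33 sham libraries, led by Ahsa2, an activator of the HSP90 ATPase (log2 1.16). The same held for 12 of 20 genes of the endoplasmic reticulum and its unfolded protein response (highest Sdf2l1, 1.16), 7 of 14 TRiC chaperonin and prefoldin genes (highest Cct3, 0.32), 5 of 11 other HSP70 genes (highest Hspa1l, 1.23), 4 of 13 J-domain genes (highest Dnaja4, 0.51) and 2 of 11 other HSP70 cochaperones (highest St13, 0.41). In the same order from the HSP90 list on, the lowest were Fkbp5 (-0.40), Herpud1 (-0.13), Pfdn5 (-0.04), Hspa13 (-0.03), Dnajb12 (-0.02) and Sil1 (-0.02), at an average log2 CPM of at least 2. Of the small heat shock proteins 3 of 7 were higher without overlap, with Hspb1 (HSP27) at 290 against 121 CPM (log2 1.33) and Hspb7 at the other end (-0.06). Mitochondrial proteases and chaperones (0 of 11) and immediate early genes (0 of 20) had none. All 10 other heat-inducible genes had a positive difference, 1 of them without overlap, from Sqstm1 at log2 0.06 to Slc5a3 at 1.61. The cold-inducible RNA-binding gene Cirbp was lower without overlap at 32.1 against 44.8 CPM (log2 -0.44), and Rbm3 was not (-0.07). Of the circadian clock genes 4 of 17 were lower without overlap and 1 was higher. These lists were written with earlier results of these data known, and the same sham difference chose the main group.

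After TAC the lists were not alike, in a comparison where 21.7% of all genes were called higher and 20.4% lower. The median log2 fold change of the 10 genes (-0.17) was near that of the HSP90 list (-0.16). Differences between lists were not tested. Small heat shock proteins rose: 6 of 7 were called higher and 0 lower for the averaged effect (5 and 0 without the library labelled KO TAC 4). The called genes ran from Hspb6 (log2 0.68, SE 0.04, adjusted p = 7.63e-10 in edgeR) to Cryab (0.22, SE 0.05, adjusted p = 0.00192). Listed genes could also depend on the sham reference. Hspb1, called higher, averaged 229 CPM after TAC, between 121 in the other and 290 in the number-33 sham libraries. Of the HSP90 cochaperones 9 of 19 were called lower and 0 higher, the largest change being that of the immunophilin gene Fkbp4 (-0.51, SE 0.05, adjusted p = 3.19e-07). Mitochondrial proteases and chaperones had 7 of 11 lower and 1 higher, from Clpx (-0.31, adjusted p = 1.64e-05) to Lonp1 (0.12, adjusted p = 0.0382). The lists of the endoplasmic reticulum (7 of 20 lower, 1 higher), other HSP70 genes (5 lower, 3 higher of 11), J-domain genes (5 lower, 3 higher of 13), TRiC and prefoldin (3 lower, 3 higher of 14), HSP70 cochaperones (2 lower, 2 higher of 11) and other heat-inducible genes (3 lower, 2 higher of 10) were mixed, with Herpud1 (-0.79), Hspa5 (-0.37), Dnajb9 (-0.29), Pfdn6 (-0.27), Sil1 (-0.28) and Dedd2 (-0.45) lowest. Their highest called genes were Atf4 (0.38), Hspa1l (0.72), Dnaja4 (0.26), Pfdn1 (0.32), Bag2 (0.42) and Ier5 (0.91). Without the library labelled KO TAC 4, counts also moved for J-domain genes (3 lower, 3 higher), HSP70 cochaperones (2 lower, 1 higher) and TRiC and prefoldin (2 lower, 2 higher), and those of the other lists named here did not. Some genes stand in 2 lists, and the exons of Hspb6, Cryab, Hspa1l, Bag2, Dnaja4, Pfdn6, Sil1 and Dedd2 overlap those of another gene.

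**Figure D4:**
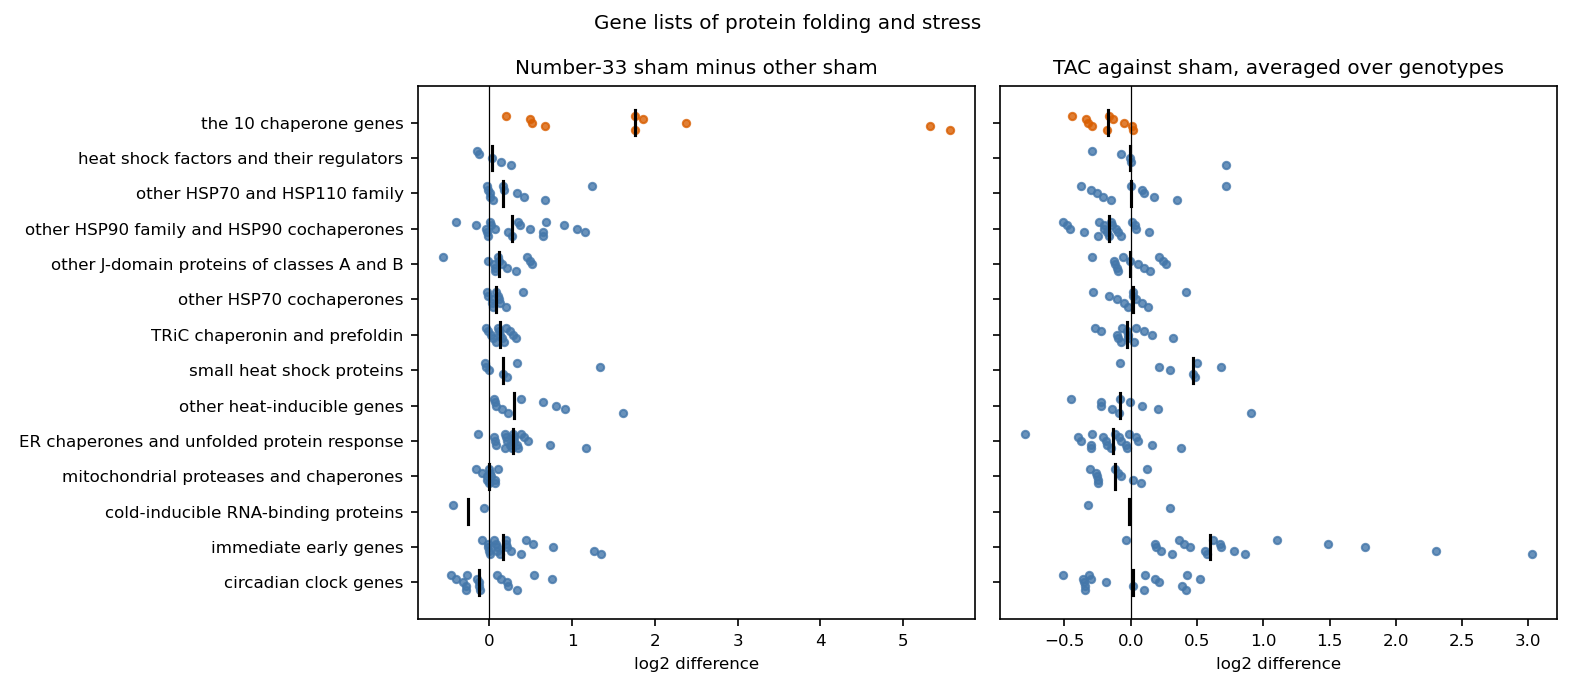
Log2 difference of each tested gene (points) and median (bar) for the 10 chaperone genes and the lists set beside them, between number-33 and other sham libraries (left) and for TAC against sham averaged over genotypes (right). The 10 genes lie highest on the left with a median of 1.76, by choice. On the right their median (-0.17) is the lowest, next to that of the HSP90 list (-0.16). The medians of small heat shock proteins (0.47) and immediate early genes (0.60) are the highest there.

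Between KO TAC and Ctrl TAC few listed genes were called. Immediate early genes, which a stimulus induces rapidly and many of which code for transcription factors, had 4 of 20 called higher, against 1.55% of all genes: Egr2 (log2 2.02, adjusted p = 0.0267 in edgeR), Nr4a2 (1.36, 0.0105), Btg2 (1.17, 0.0492) and Egr3 (0.97, 0.0374). For the TAC effect in KO hearts 16 of 20 were called higher, and in Ctrl hearts 3 of 20, where 17.5% and 9.29% of all genes were, and these counts alone do not show that the genotypes differ. Bag2 (0.22, 0.0450) and Rbm3 (0.45, 0.0359) were also higher in KO TAC, and Fkbp4 (-0.29, 0.0355) and the mitochondrial disaggregase gene Clpb (-0.22, 0.0404) were lower. Without the library labelled KO TAC 4 the calls of Fkbp4 and Clpb were lost (adjusted p = 0.0623 and 0.0930 in edgeR) and the other 6 were kept. With a term for the numbers starting with 25 none of these 8 genes was called (adjusted p 0.0918 to 0.260 in edgeR), although each fold change kept its sign, and the calls over all genes went from 573 to 14. In that fit the only KO TAC library with such a number is KO TAC 4, whose Cardinal level goes against its label. The only Ctrl TAC library without one is Ctrl TAC 1. Of the 16 refits with 1 library left out, the call was kept in 16 for Nr4a2, 12 for Egr2, 11 for Fkbp4, 8 for Rbm3, 7 each for Egr3 and Clpb, and 3 each for Btg2 and Bag2. Without Ctrl TAC 2, 77 genes were called in all. Genotype and animal number are separated in the TAC libraries only through Ctrl TAC 1 and the library labelled KO TAC 4, which are too few to tell them apart.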

How the data were processed

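Gene counts were taken as the authors deposited them: 1 table of raw read counts with 1 column per mouse, matched by the animal number in the titles. The submitters' processing notes name cutadapt 2.3, FastQC, HISAT2 2.1.0, edgeR 3.26.1 and GRCm38; the counting program and its use of strand are not given in the sources used here. Names, positions and exon lengths came from GENCODE M21 (GRCm38), promoters from RefSeq (GRCm38.p6). Reads could be shared with overlapping or near-identical genes for Hspa1a, Hspa1b, Dnaja1, Hspd1, Hspe1 and Hspa8.

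Genes were filtered with filterByExpr and scaled by TMM in edgeR 4.0.16 (R 4.3.3). A quasi-likelihood model with 4 group means and a centred term for number-33 sham libraries was fitted to all 16 libraries (11 residual degrees of freedom), tested on simulated data, and called at a two-sided Benjamini-Hochberg adjusted p under 0.05. CPM are counts relative to the scaled library total. Replicates were numbered in the order of the samples and pair nothing. The p-values measure the spread between mice. No library pair agreed within sampling noise.

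The 10 genes, the lists and the naming rule were chosen with earlier results of these data known. Named were all 10 genes, Gm12295, Hsf1 and Hsf2, and per list the highest and lowest called gene for the averaged TAC effect and KO TAC against Ctrl TAC and the highest and lowest in the sham description (average log2 CPM of at least 2). For the averaged effect this left out the cold-inducible, immediate early and clock lists and the highest called HSP90 gene. For the sham description it left out the mitochondrial, immediate early and clock lists. Further genes called in a count of 5 or fewer were named after their values were seen. Alternatives were RLE scaling, DESeq2 1.42.0, 2 other filters, no number term, a further term for numbers starting with 25, fits to 2 groups, summed Hspa1a and Hspa1b, and each library left out; refits of listed genes with the further term or without a library were added after seeing the data.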

Additional observations from a re-analysis of the deposited data

Results flagged for a closer look

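In groups of 4 libraries, the highest or lowest library was compared with the rest by Dixon's criterion for each of the 10 genes, which gave 7 flags in 40 tests. Chance flags about 1 in 20 groups, and these genes were chosen for differences between sham libraries. Ctrl sham 4 stood far above the other Ctrl sham libraries for Hspa1a (346 CPM), Hspa1b (437), Hsp90aa1 (459), Dnaja1 (322), Dnajb1 (66.7) and Bag3 (319). KO sham 4 stood far below the other KO sham libraries for Hsph1 (45.4 CPM). All 7 flags fall in sham groups. Ctrl sham 4 is the only number-33 library among the Ctrl sham libraries, and KO sham 4 is the only KO sham library that is not, so the flags follow from how the genes were chosen and are no independent evidence.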

How the results depend on the processing

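No paired analysis was possible because replicate numbers only follow the order of the samples. The fall of Hspd1 after TAC was called in all 23 alternatives (log2 -0.37 to -0.31, adjusted p 1.16e-09 to 0.000204). That of Hspe1 was lost in 12 of 23 (adjusted p 0.00403 to 0.157), 10 of them with 1 library left out, so the number of members called for the averaged effect was 1 with no filter beyond 1 count, 1 with no number term, and 1 to 2 with a library left out, against 2. In fits to the 2 groups compared, 0 members were called for Ctrl TAC against Ctrl sham and 2 for KO TAC against KO sham, against 1 each; leaving out a library gave 0 (without Ctrl sham 4) to 2 (without KO sham 3) for the first and 1 to 2 (without Ctrl sham 4 or KO sham 2) for the second. No member was called for the genotype comparisons or the interaction under any alternative. Signs turned only for fold changes that were not called: Hsp90aa1 after TAC (-0.23 with no number term, -0.047 to 0.091 with a library left out), Hspa1a after TAC (-0.467 to 0.089 with a library left out, and -1.76 with no number term), Bag3 after TAC (-0.0069 to 0.054 with a library left out) and Hsph1 in KO TAC (-0.017 without KO TAC 2, up to 0.33). The causes were not tested. Over all genes, 573 were called for KO TAC against Ctrl TAC, but 1309 by DESeq2, 336 with no filter, 14 with the number-25 term, 154 in the fit to 2 groups and 77 (without Ctrl TAC 2) to 815 (without Ctrl TAC 4) with a library left out. Without Ctrl sham 4, 1312 genes were called for Ctrl TAC against Ctrl sham in place of 3246, and without KO sham 4, 3845 for KO TAC against KO sham in place of 6208. For KO sham against Ctrl sham and the interaction DESeq2 called 3 and 195 genes, where edgeR called 0. The lowest count of Hspa1a in any library was 275, and each group held 4 mice.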
